A study of Oryza sativa with 6 samples.

Results

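Gibberellins are the plant hormones that drive stem elongation, and rice plants that make or sense too little of them are dwarfs. They are built from a diterpene precursor in plastids (CPS1, KS1), oxidised by cytochrome P450 enzymes (KO2, KAO) and finished by soluble oxidases that include the 20-oxidases (GA20OX2, GA20OX3), while EUI, another P450, inactivates them. The hormone is bound by the receptor GID1, which then leads to the breakdown of SLR1, the DELLA repressor that holds back growth genes. The 10 genes described here cover these steps and 1 gene of the growth response, XTH8, which encodes a cell wall enzyme of the xyloglucan endotransglucosylase family that is known in rice to respond to gibberellin. Each was chosen by the identifier of 1 probe set, so they stand for 10 of the 57258 non-control probe sets on the array.

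The groups were Epi-df seedlings and wild type seedlings, 3 biological replicates each, of japonica rice. All plants were 3 weeks old, grown in artificial soil after 3 days in water, and each replicate was hybridised to 1 Affymetrix rice genome array. As background, Epi-df plants are dwarf and carry an epigenetic form of FIE1, a Polycomb group gene. No transgene or treatment is given for either group, and how many plants or which organs went into a replicate is not given in the sources used here. No probe set was named FIE1 in the tables used here, so the labels could not be checked against it. Values are MAS5 probe set intensities on a linear scale, whose medians per array lay between 108.1 and 114.5. No array stood far apart by its spread: the root mean square deviation of its log2 values from the group mean was 0.157 to 0.187 for Epi-df and 0.125 to 0.146 for wild type. Photosynthesis markers, which mark green shoot tissue, were bright in both groups, and none was called. Their 3 probe sets summed to 49827 to 57923 in Epi-df and 50526 to 52803 in wild type. Of these, LHCP was higher on every Epi-df array, at 17779 to 19960 against 15234 to 15847 in wild type. Its log2 change was 0.28 (limma adjusted p = 0.0749). The 4 root marker probe sets summed to 1139 to 1485 in Epi-df and 1287 to 1413 in wild type, and none was called. Of these, the silicon transporter gene LSI1 was at 473 to 662 in Epi-df and 369 to 446 in wild type, while the manganese transporter gene NRAMP5 was at 555 to 833 in Epi-df and 797 to 896 in wild type. The 5 probe sets for reproductive organs and grain summed to 2402 to 2693 in Epi-df, against 1293 to 1456 in wild type, mostly through the floral gene MADS16, the 1 called among them. Of the grain markers, the glutelin gene GLUA1 was at 19.9 to 53.1 in Epi-df and 21.5 to 32.1 in wild type. The prolamin probe set was at 66.3, 252 and 24.0 in the Epi-df arrays, against 40.1, 22.3 and 102.4 in the wild type arrays, with overlap. The 3' to 5' ratio of the GAPDH control, a sign of RNA quality, was 2.11, 1.63 and 1.68 in the Epi-df arrays, against 2.33, 2.04 and 1.96 in the wild type arrays. What part these differences have in the gibberellin results was not tested.

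Setting Epi-df against wild type asks which transcripts differ between the dwarf line and the normal plant. A probe set was called when its change was at least 2-fold and its adjusted p was under 0.05 (limma on log2(intensity + 16), Benjamini-Hochberg over the 34355 probe sets tested). Such calls made up 0.614% of the tested probe sets, 0.437% lower and 0.178% higher in Epi-df. All 10 genes passed the filter on low values, an average intensity over the 6 arrays of at least 81.09. The 1 called gibberellin gene was GA20OX2, and it was lower in Epi-df. The groups did not overlap, with every Epi-df array lower, for GA20OX2, KAO, KO2, CPS1 and EUI, 5 of the 10 genes, where 9.79% of all tested probe sets did this. None of the 10 lay wholly higher in Epi-df, where 9.82% of tested probe sets did. The log2 change was below 0 for 7 of the 10 genes and for 46.1% of tested probe sets, and an unadjusted p was under 0.05 for 5 of the 10 (GA20OX2, KAO, KO2, CPS1 and XTH8) and for 14.4% of tested probe sets. The median log2 change was -0.26 over the 10 genes and 0.01 over all tested probe sets. The genes were chosen with earlier results of these data known, so these counts describe them and do not test them.

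**Figure D1:**
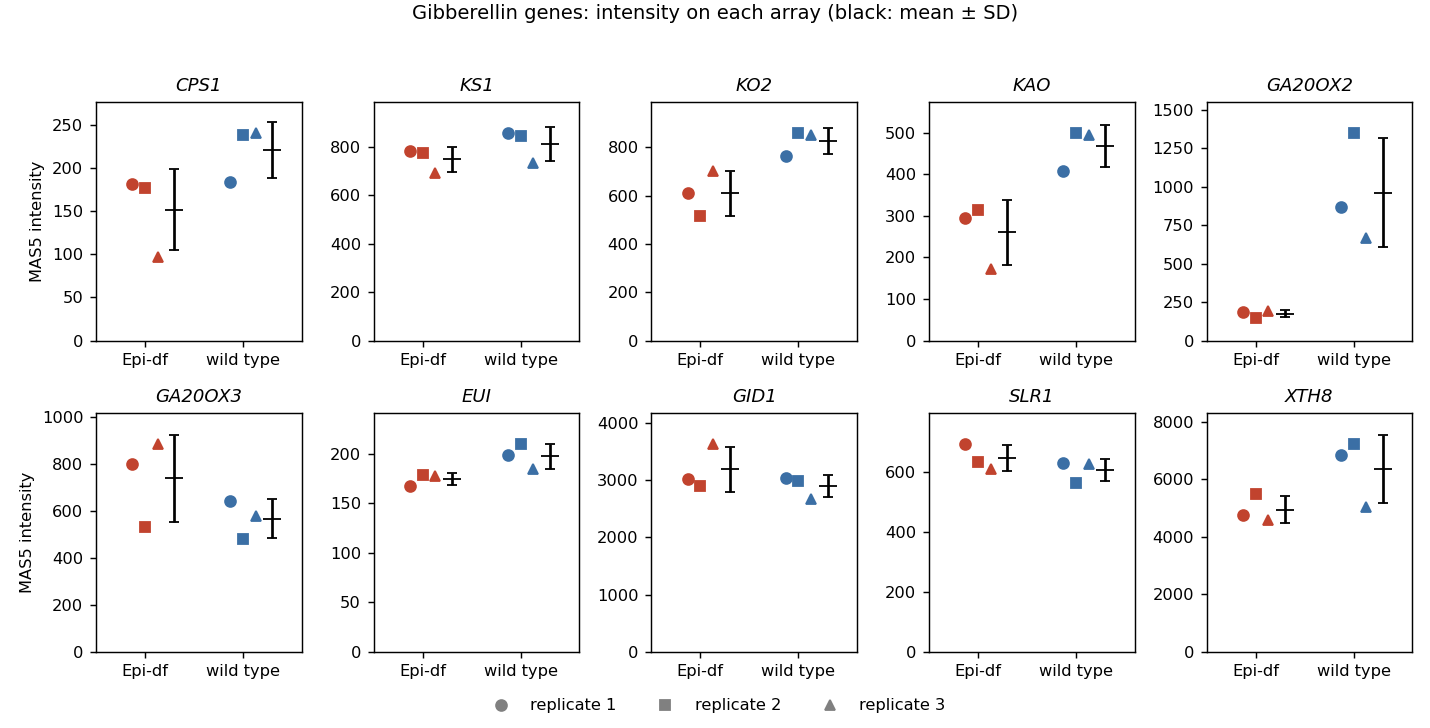
MAS5 intensity (linear axis from 0) of the 10 genes on each array, Epi-df left and wild type right, with marker shape for the replicate number and the mean ± SD in black (n = 3 each). GA20OX2 lies between 148 and 193 in Epi-df and between 664 and 1349 in wild type, and KAO, KO2, CPS1 and EUI are the other genes whose groups do not overlap.

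GA20OX2 encodes the gibberellin 20-oxidase known as SD1, whose loss gives the semi-dwarf rice of the green revolution. Its intensity was 183, 148 and 193 in the Epi-df arrays, against 868, 1349 and 664 in the wild type arrays. Every Epi-df array lay far under the lowest wild type array, and the Epi-df arrays were close to each other while wild type replicate 2 was well above the other wild type arrays. The mean was 174 ± 23.4 in Epi-df and 960.2 ± 352 in wild type (SD, n = 3 each), a ratio of 5.50 of wild type over Epi-df on the linear scale. On the log2 scale GA20OX2 fell by 2.30 ± 0.24 (SE, 95% interval -2.86 to -1.75, limma adjusted p = 0.00602). Only 39 of the 34355 tested probe sets, GA20OX2 included, had a change of this size or more in either direction. With 1 array left out at a time the log2 change of GA20OX2 lay between -2.54 (without wild type replicate 3) and -2.03 (without wild type replicate 2), and it was called each time, with limma adjusted p from 0.00936 to 0.0395. In RNA from bulk seedling tissue, fewer cells that express a gene and less RNA per cell cannot be told apart.

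GA20OX3 encodes another enzyme of the same 20-oxidase step. Its intensity was 799, 532 and 886 in the Epi-df arrays, against 645, 479 and 578 in the wild type arrays. The groups overlapped, since Epi-df replicate 2 lay under the 2 higher wild type arrays. Its log2 change was 0.35 ± 0.20 (SE, 95% interval -0.11 to 0.81, limma adjusted p = 0.504). It ranged from 0.21 without Epi-df replicate 3 to 0.57 without Epi-df replicate 2. The log2 difference between the GA20OX2 and GA20OX3 probe sets within each array had a mean of Epi-df minus wild type of -2.66, with SDs of 0.20 in Epi-df and 0.68 in wild type (two-sided exact permutation p = 0.1 over 20 assignments, the smallest p that 3 arrays against 3 can give).

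The same difference of changes was computed between GA20OX2 and each of the other 9 genes. GA20OX2 had the lowest change of the 10 genes, so all 9 differences were negative by its choice as the reference. They ran from -1.46 against KAO to -2.66 against GA20OX3. Each gave an exact permutation p of 0.1, also after Benjamini-Hochberg adjustment over the 9, so this design cannot pass a threshold of 0.05 for them. The signs of all 9 were kept with other pseudocounts, other scalings and any single array left out, as GA20OX2 stayed the lowest gene each time.

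**Figure D2:**
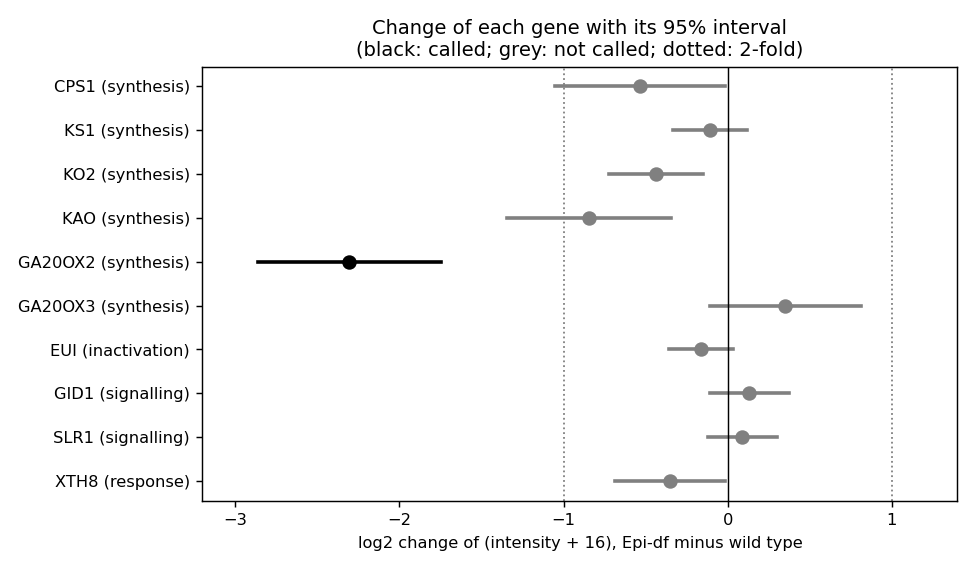
Log2 change of (intensity + 16), Epi-df minus wild type, of each gene in the order of the pathway, with its 95% interval from limma (3 arrays per group). The interval of GA20OX2 lies beyond the 2-fold line, those of KAO and CPS1 cross it, and the others lie inside the lines.

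The genes of the earlier steps were next. CPS1 encodes the cyclase that makes ent-copalyl diphosphate, the first committed step. It was at 182, 176 and 97.25 in the Epi-df arrays, against 184, 238 and 241 in the wild type arrays. Epi-df replicate 3 was far under the rest, while Epi-df replicate 1 came within a few units of wild type replicate 1. The log2 change of CPS1 was -0.53 ± 0.22 (SE, 95% interval -1.05 to -0.01, limma adjusted p = 0.331). With Epi-df replicate 3 left out it came to -0.27.

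KS1 encodes ent-kaurene synthase, the next enzyme. Its intensity was 784, 776 and 691 in the Epi-df arrays, against 859, 844 and 733 in the wild type arrays. The groups overlapped because wild type replicate 3 lay under 2 of the Epi-df arrays. The log2 change was -0.11 ± 0.10 (SE, 95% interval -0.34 to 0.12, limma adjusted p = 0.704), and with 1 array left out it ran from -0.18 to -0.05. The probe set has the suffix _s_at, by which Affymetrix marks probes shared by several transcripts, and the gene table places the relatives KSL3 and KSL2 right beside KS1. The value of KS1 is therefore uncertain as that of a single gene.

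KO2, known as D35, encodes ent-kaurene oxidase. It was at 609, 515 and 704 in the Epi-df arrays, against 764, 861 and 853 in the wild type arrays, and every Epi-df array was lower. Its log2 change was -0.44 ± 0.12 (SE, 95% interval -0.72 to -0.15, limma adjusted p = 0.144). A second probe set of the gene was at 303, 269 and 355 in the Epi-df arrays, against 393, 439 and 344 in the wild type arrays, with overlap between Epi-df replicate 3 and wild type replicate 3. The log2 change of this second KO2 probe set was -0.33 ± 0.13 (SE, limma adjusted p = 0.306). Both have the suffix _x_at, which marks probes that can bind similar sequences, and the gene table places a gene that shares the synonym CYP701A19 with KO2 right beside it, with which the tables used here pair no probe set, so the signal of both sets may not be that of KO2 alone.

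KAO encodes ent-kaurenoic acid oxidase, which leads to the first gibberellin. Its intensity was 295, 315 and 171 in the Epi-df arrays, against 408, 499.5 and 494 in the wild type arrays. All 3 Epi-df arrays were under the lowest wild type array, and Epi-df replicate 3 was again the lowest. The mean was 260.2 ± 77.6 in Epi-df and 467 ± 51.1 in wild type (SD, n = 3 each). The log2 change of KAO was -0.85 ± 0.21 (SE, 95% interval -1.35 to -0.34), with an unadjusted p of 0.00489 that did not pass the adjustment (limma adjusted p = 0.111). Among the 10 genes it was the second largest change, and 706 of the 34355 tested probe sets changed as much or more.

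KAO and CPS1 followed each other from array to array within the groups, the closest of the 45 pairs among the 10 genes and picked after the values were seen. On the log2 scale Epi-df replicate 3 deviated from the Epi-df mean by -0.52 for KAO and -0.52 for CPS1. Wild type replicate 1 deviated from the wild type mean by -0.18 for KAO and -0.24 for CPS1, the lowest of its group for both. GID1 and GA20OX3 were at their highest in Epi-df replicate 3, with deviations of 0.20 and 0.29. KO2 was highest there too within its group, at 0.21, while KS1 was lowest there, at -0.11. The early genes thus did not all share the low values of this array.

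**Figure D3:**
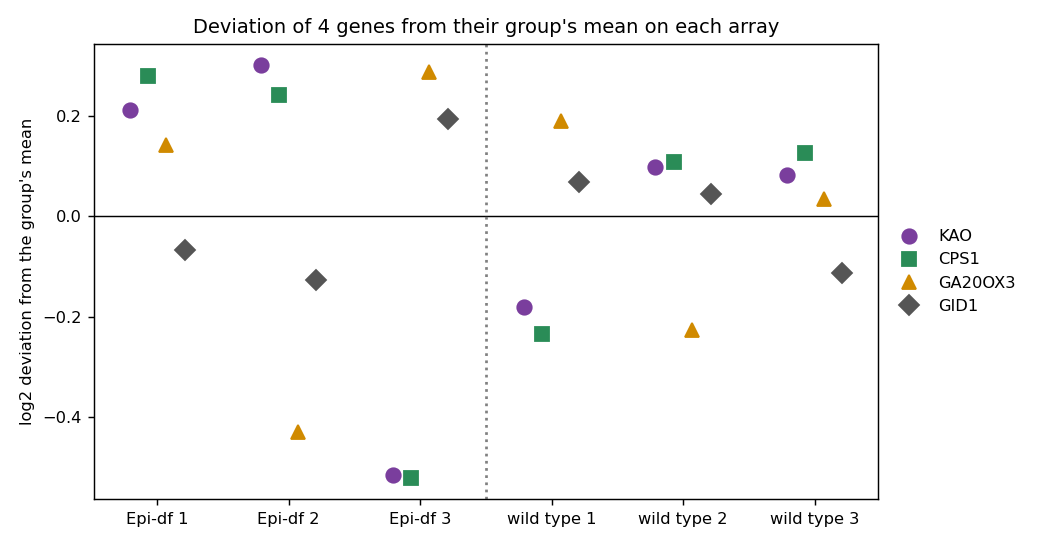
Log2 deviation of KAO, CPS1, GA20OX3 and GID1 from the mean of their own group on each of the 6 arrays. In Epi-df replicate 3 KAO and CPS1 lie at -0.52 while GID1 and GA20OX3 lie at 0.20 and 0.29.

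EUI encodes the P450 enzyme CYP714D1, which inactivates gibberellins and whose loss gives a tall uppermost internode. It was at 168, 179 and 178 in the Epi-df arrays, against 199, 210.1 and 185 in the wild type arrays. The groups did not overlap, but the gap between the highest Epi-df and the lowest wild type array was small. The log2 change of EUI was -0.16 ± 0.08 (SE, 95% interval -0.36 to 0.03, limma adjusted p = 0.460), and 10300 of the tested probe sets changed as much or more.

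For perception and signalling, neither gene was called. GID1, the receptor gene, was at 3026, 2899 and 3630.4 in the Epi-df arrays, against 3038, 2985 and 2673 in the wild type arrays. The groups overlapped and Epi-df replicate 3 was the highest array. The log2 change of GID1 was 0.13 ± 0.10 (SE, 95% interval -0.11 to 0.37, limma adjusted p = 0.669). With Epi-df replicate 3 left out it was 0.03. A dim second probe set of GID1, with means of 64.2 ± 7.34 in Epi-df and 68.45 ± 11.6 in wild type (SD, n = 3 each), lay under the filter and was not tested.

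SLR1, the DELLA gene, was at 694, 636 and 611 in the Epi-df arrays, against 629, 564 and 627 in the wild type arrays. The groups overlapped, and the highest array was Epi-df replicate 1. Its log2 change was 0.09 ± 0.09 (SE, 95% interval -0.12 to 0.30, limma adjusted p = 0.750). With 1 array left out it ran from 0.04, without Epi-df replicate 1, to 0.13. The unadjusted intervals of GID1 and SLR1 leave out a 2-fold change in either direction. SLR1 acts as a protein whose amount is set by breakdown, which an array does not measure.

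XTH8, the response gene, was at 4740.45, 5495 and 4598 in the Epi-df arrays, against 6838, 7226 and 5025 in the wild type arrays. Wild type replicate 3 lay under Epi-df replicate 2, and this was the overlap between the groups. The log2 change of XTH8 was -0.35 ± 0.14 (SE, 95% interval -0.68 to -0.01, limma adjusted p = 0.322). It came to -0.25 with wild type replicate 2 left out. With wild type replicate 3 left out, XTH8 came to -0.51 and its limma adjusted p to 0.0817.

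**Figure D4:**
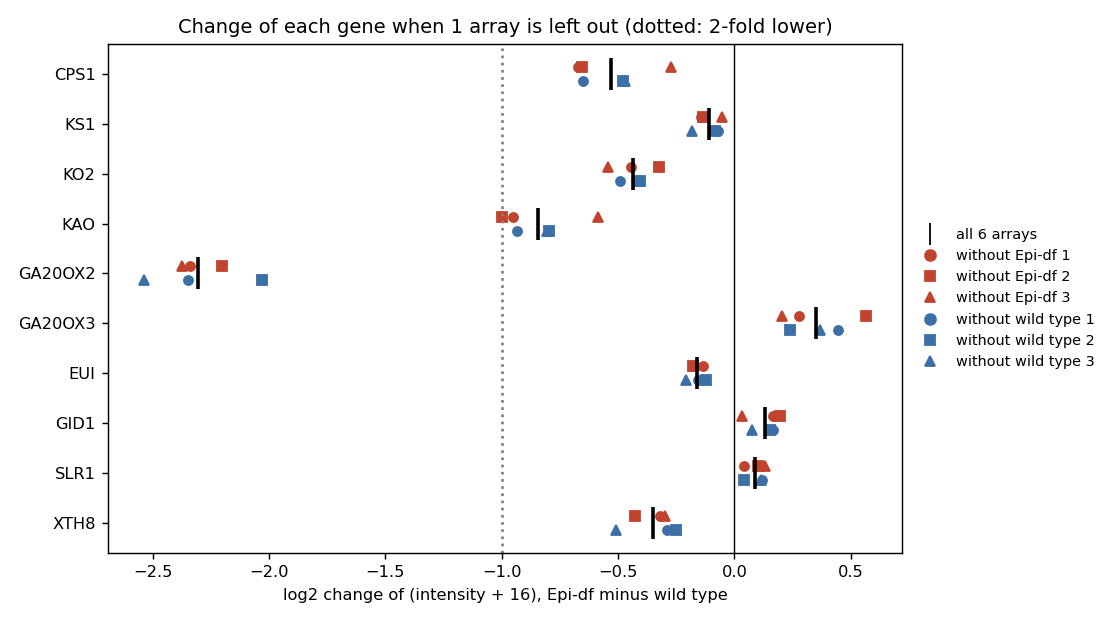
Log2 change of (intensity + 16), Epi-df minus wild type, of each gene with all 6 arrays (black bar) and with 1 array left out (markers). GA20OX2 lies between -2.54 and -2.03, all beyond the 2-fold line, CPS1 ranges from -0.67 to -0.27, and no gene changes sign.

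Other gibberellin-related genes were taken from a list of names, of which 22 were found in the gene table. Of these, 16 had a probe set and 11 lay above the filter. The 8 listed under synthesis were relatives of CPS1, KS1 and KO2. They were listed as relatives by name, and none of them is taken here as a gibberellin synthesis gene. KO4 and CPS2 are known for other diterpenoids, so their calls, counted below, do not describe gibberellin synthesis. No GA20OX, GA3OX or GA2OX gene (gibberellin oxidases) was among the 16. Called were 2 of the 11, both lower in Epi-df, YAB1 and KO4, where 0.437% of tested probe sets were called lower. Since the filter could let a gene in through the group where it was high, all 16 were also fitted with no filter. Then 3 of the 16 were called lower, YAB1, KO4 and CPS2, and none higher, where 0.311% of all 57258 probe sets were called lower. YAB1 encodes a YABBY transcription factor reported in rice to take part in the feedback control of gibberellin synthesis. Its intensity was 732, 555 and 434 in the Epi-df arrays, against 1046, 1283 and 1328 in the wild type arrays, with no overlap. YAB1 fell by 1.09 ± 0.19 on the log2 scale (SE, limma adjusted p = 0.0356). This call was lost when any array other than Epi-df replicate 1 was left out. Log2 changes of YAB1 were then between -1.20 and -0.91, with limma adjusted p of up to 0.138. The probe set has the suffix _s_at, so its signal may not be that of YAB1 alone. A second, dim YAB1 probe set lay under the filter and was not tested. It was at 15.9, 23.5 and 13.6 in the Epi-df arrays, against 19.5, 19.8 and 24.65 in the wild type arrays, with overlap.

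KO4 lies near KO2 and encodes a related P450 enzyme, CYP701A8, known for diterpenoids other than gibberellin. It was at 32.5, 47.9 and 25.55 in the Epi-df arrays, against 110.6, 160.5 and 118.9 in the wild type arrays, all Epi-df arrays being lower. Its mean over the 6 arrays was 82.7, just over the filter, so it was let in through its wild type arrays and its place among the 11 supports nothing by itself. With no filter its log2 change was -1.52 ± 0.17 (SE, limma adjusted p = 0.00549 over 57258 probe sets), and with the filter KO4 had an adjusted p of 0.00999. Without any 1 of the wild type arrays its mean lay below the filter.

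CPS2 encodes a copalyl diphosphate synthase of phytoalexin synthesis that makes the same product as CPS1. It was at 11.2, 11.8 and 11.6 in the Epi-df arrays, against 66.25, 106.5 and 86.96 in the wild type arrays, so that all Epi-df arrays were near the bottom of the scale. Its mean lay under the filter, and it was not tested with the others. With no filter CPS2 was called, with a log2 change of -1.88 ± 0.13 (SE, limma adjusted p = 0.000582 over 57258 probe sets). The kaurene synthase-like gene KSL7 of the same gene cluster had a log2 change of 0.07 ± 0.17 (SE, limma adjusted p = 0.908).

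Among the other signalling genes, EL1, a casein kinase gene known to act on SLR1, had a log2 change of -0.12 ± 0.07 (SE, limma adjusted p = 0.565) with no overlap between the groups. SLRL1, a relative of SLR1, SPY, a negative regulator of the pathway, and GAMYB, its transcription factor in the aleurone and anther, had log2 changes of -0.07, -0.05 and -0.06 and overlapping groups. GRF1, a growth-regulating factor gene known in rice as induced by gibberellin, was at 511, 479 and 259 in the Epi-df arrays, against 239.8, 336 and 319 in the wild type arrays. Epi-df replicate 3 was low for GRF1 as it was for KAO and CPS1, and the log2 change was 0.42 ± 0.25 (SE, limma adjusted p = 0.550). CYP714C1 and CYP714C2, relatives of EUI, had log2 changes of -0.08 and -0.04. CPS2, KSL7, EL1, SLRL1, SPY and GAMYB were named after their values were seen.

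**Figure D5:**
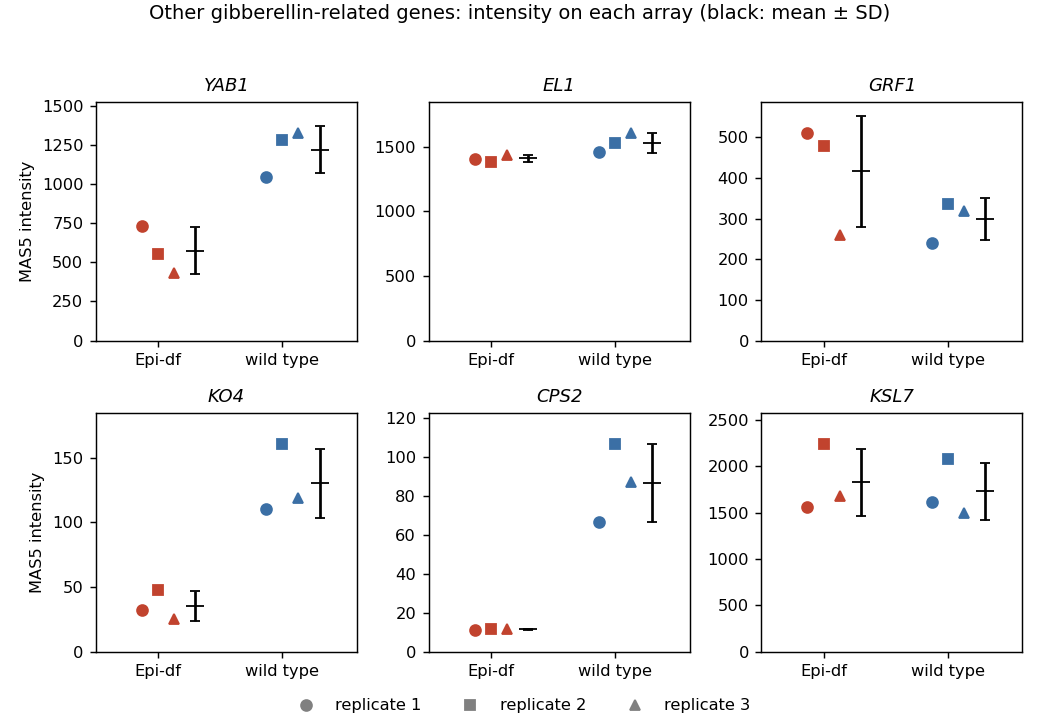
MAS5 intensity (linear axis from 0) of 6 other gibberellin-related genes on each array, Epi-df left and wild type right, with the mean ± SD in black (n = 3 each). YAB1, KO4 and CPS2 lie lower on every Epi-df array, with CPS2 between 11.2 and 11.8 in Epi-df and between 66.25 and 106.5 in wild type.

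The genes whose log2 values over the 6 arrays were most like those of GA20OX2 were taken from 2120 tested probe sets with a gene name. They were HAK9, a potassium transporter gene, with a Pearson correlation of 0.993, NRAMP2, a metal transporter gene, with 0.992, CASPL2C2 with 0.987, the ethylene signalling gene EIL1 with 0.982 and the xylan synthesis gene IRX9L with 0.980. Likeness to GA20OX2 favours genes that were lower on every Epi-df array, as all 5 were. Their log2 changes were -0.42, -0.29, -0.23, -0.27 and -0.33, and none was called. These arrays form 2 groups, so the correlations mix the difference between the groups with the spread inside them, and 60 tested probe sets reached the fifth of these values.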

How the data were processed

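The authors deposited 1 intensity per probe set and array, linear in scale, and the submitters' processing notes name MAS5. The version, the scaling target and detection calls are not given in the sources used here. Of 57381 probe sets, 123 controls were left out. No 2 arrays were identical, and no further scaling was made.

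After adding 16 and taking log2, a linear model was fitted to every probe set (limma 3.58.1, R 4.3.3). Its two-sided moderated test let the prior spread follow intensity (eBayes, trend) and had no replicate block. The scale understates changes of dim probe sets. Probe sets under the 40th percentile of the mean intensity (81.09) were left out, leaving 34355. Calls needed an adjusted p under 0.05 and 2-fold, the thresholds the design text names. The number of arrays limits the precision. The fit was also run on simulated data, with noise independent between probe sets and changes of over 2-fold planted in bright probe sets only. That run did not cover dim probe sets, smaller changes or deviations shared by the probe sets of an array.

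Names came from the platform annotation and the RefSeq gene table of assembly ASM3414082v1, in which 22436 probe sets had 1 gene, 95 several and 34727 none. No coordinates are given, since the files name no build, and no sequences, since none were used here. For a gene with several probe sets outside the 10, the one with the highest mean stood for it.

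The 10 genes, the lists and the rules were chosen with earlier results of these data known. The text names the 10 genes and their other probe sets. Of the other gibberellin-related genes it names those called or with a change of at least 0.5 and no overlap. In roles without one it names the brightest 2, and it also names the 5 genes most like GA20OX2. Samples sharing a replicate number were not paired. Their deviations from the group means correlated at 0.13, 0.33 and -0.06, against -0.30 to 0.13 for arrays with different numbers. Whether a replicate number marks a shared batch was not tested. Alternatives were other pseudocounts, filters, scalings, spread models, array weights, a replicate block, Storey's q, other fold thresholds and leaving out each array.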

Additional observations from a re-analysis of the deposited data

How the results depend on the processing

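With all arrays 211 probe sets were called, 61 higher and 150 lower in Epi-df, and GA20OX2 was the 1 called gibberellin gene of the 10 under every alternative run. None of the 10 changed sign. The count of probe sets was 324 with the replicate block, 614 with no fold threshold and 494 at 1.5-fold, and 111 to 260 with 1 array left out, lowest without wild type replicate 1 (111) and wild type replicate 2 (117). The replicate block cannot alter the log2 changes, since each replicate number holds 1 array of each group, but it can alter the p values. With it the limma adjusted p of GA20OX2 rose from 0.00602 to 0.0119. Those of XTH8 and GA20OX3 fell from 0.322 to 0.116 and from 0.504 to 0.188. No call among the 10 genes changed. Of the other gibberellin-related genes 2 were called, and 1 with log2(intensity + 64) and with the filter at the 60th percentile. With 1 array left out, 0 to 2 were called. The count was 0 without each of the wild type arrays (limma; KO4 was then under the filter). KO4 was at -0.96 with log2(intensity + 64), under 2-fold by the construction of that scale. Over the other settings GA20OX2 lay between -2.43 and -2.05 (limma adjusted p from 0.00282 to 0.0119). KAO lay between -0.89 and -0.74 (0.0764 to 0.120), and between -0.997 and -0.59 with 1 array left out (0.0730 to 0.301). No detection calls were used, so whether low intensities such as those of CPS2 in Epi-df lie above background was not tested.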

Other observations

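The genes beside GA20OX2 were looked at after its values were seen. Of the nearest 3 genes with a probe set on each side, 4 were lower on every Epi-df array and 1 was higher on every Epi-df array, where 9.79% and 9.82% of all tested probe sets did so. LOC4324999, 4 genes away, was at 814, 301 and 427 in the Epi-df arrays, against 1483, 1220.0 and 1457 in the wild type arrays, a log2 change of -1.52 that was not called (limma adjusted p = 0.0640). The stress transcription factor gene NAC6, 2 genes away on the other side, had a log2 change of -0.79, past the adjusted p but under 2-fold (limma adjusted p = 0.0188). The gene next to GA20OX2 on that side, LOC4325004, had one of -0.20 and the one on the other side, LOC4325002, one of -0.03 with overlapping groups. MADS2, a floral gene, lay higher on every Epi-df array, with a log2 change of 0.33 (limma adjusted p = 0.225). These neighbours are few, and no test of the region was made. Neighbours of KS1 and KO2 were looked up in the same way. Around KS1 only LOC4336963, which lay under the filter, was lower on every Epi-df array, and LOC4336956 was higher. Around KO2 only KO4 was lower on every Epi-df array, and LOC4341352 and LOC4341353 were higher.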
